A study of Mus musculus with 7 samples.

Results

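The miRNAs of the miR-297, miR-466, miR-467 and miR-669 groups that lie in an intron of the mouse gene Sfmbt2 were followed through proliferation and differentiation of primary myogenic progenitor cells. The members were all assays with the prefix mmu and one of these 4 miRNA numbers, with any letter or arm, which gave 9 of the 375 miRNA assays: miR-297b-5p, miR-297c, miR-466h, miR-467a, miR-467b, miR-467c, miR-467d, miR-467e and miR-669a. Myogenic progenitor cells are the dividing cells that repair muscle and fuse into myotubes. They came from hind limb muscle of C57BL/6J mice, carried no genetic change in the labels and were used at passage 3. In proliferation they were kept on collagen in Ham's F-10 with fetal bovine serum and FGF-2, and RNA was taken on days 2 and 5. In differentiation they adhered for 24 h in that growth medium on an entactin, collagen IV and laminin coat (day 0), then had DMEM with little horse serum on days 1, 2 and 5. All cultures had penicillin and streptomycin. The deposited samples are 7 pairs of these days, 6 within differentiation and 1 within proliferation, and they hold 6 different day columns with 4 rows of threshold cycles (Ct) each.

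Sfmbt2 encodes a Polycomb group protein that binds chromatin, and in the mouse it is an imprinted gene, read from the paternal copy in early embryos and in extraembryonic tissue. The miRNAs of its intron form one of the large repeated miRNA clusters of rodents and are known chiefly for their high levels in placenta, where deletion of the cluster disturbs growth. In skeletal muscle lineages, miR-669a has been reported in mouse cardiac progenitors to hold back the muscle programme through the mRNA of Myod1. For miR-467b, a role in lipid handling through lipoprotein lipase has been reported in mouse macrophages.

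In the RefSeq gene table for GRCm38.p6, 72 miRNA genes of the 4 numbers lay inside Sfmbt2 on chromosome 2, and 10 others lay elsewhere in the genome. The genes inside Sfmbt2 comprised 5 of miR-297, 24 of miR-466, 14 of miR-467 and 29 of miR-669. In gene order, a miR-466, a miR-669 and a miR-467 gene followed each other in 9 runs of 3 neighbours. The assayed miRNAs matched 29 of the 72 genes by name. Of these, miR-467a had 10 copies and miR-669a had 12, between places 15 and 59 of the order, whereas the other 7 members had 1 gene each. An assay for a mature miRNA cannot tell these copies apart, and which copies gave the RNA read as miR-467a or miR-669a was not measured.

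**Figure D1:**
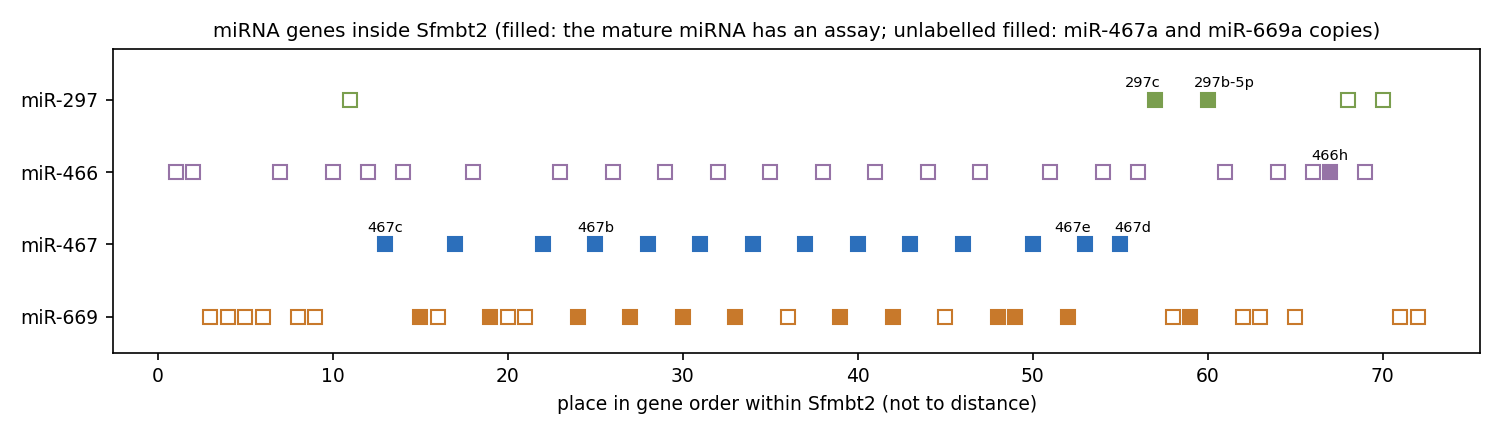
Order of the 72 miRNA genes inside Sfmbt2, by place in the order and not to distance, with 1 line of squares for each miRNA number. Filled squares are genes whose mature miRNA had an assay (29 genes); all 14 miR-467 genes had one, but 1 of the 24 miR-466 genes did.

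Of the 9 members, 0 were matched in the RefSeq table of mature miRNAs. The table holds 8 mature miRNAs of the same numbers, all from genes on other chromosomes and none of them assayed in these cells. The 3 relatives of miR-467 and the relative of miR-669 are printed as examples from outside the cluster. None of the 8 is a miR-297, and whether the members share their composition was not examined. Capitals mark the seed, bases 2 to 8, and coordinates are those of GRCm38.p6. The gene of miR-467f lies at chr11:69635419-69635439 (minus strand), that of miR-467g at chr5:34732872-34732892 (minus strand), that of miR-467h at chr9:115381898-115381919 (plus strand) and that of miR-669n at chr3:115979905-115979924 (plus strand).
miR-467f: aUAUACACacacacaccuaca
miR-467g: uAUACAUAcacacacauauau
miR-467h: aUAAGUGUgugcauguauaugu
miR-669n: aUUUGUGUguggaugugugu
All 8 of these miRNAs held the letters UGUGUG or ACACAC, which 2.24% of the 1738 mature miRNAs in the table hold, and their 8 seeds all differed.

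Since the members share a host transcript, the windows around its annotated starts are given as well, from 250 bases before to 50 after each start, as RefSeq has them in GRCm38.p6. The first window is chr2:10370201-10370500 and the second chr2:10372186-10372485, both on the plus strand. Capitals mark the letters GGGCGG, a GC box, searched on both strands together with CANNTG, the E-box that myogenic factors such as MyoD bind.
Sfmbt2 window 1: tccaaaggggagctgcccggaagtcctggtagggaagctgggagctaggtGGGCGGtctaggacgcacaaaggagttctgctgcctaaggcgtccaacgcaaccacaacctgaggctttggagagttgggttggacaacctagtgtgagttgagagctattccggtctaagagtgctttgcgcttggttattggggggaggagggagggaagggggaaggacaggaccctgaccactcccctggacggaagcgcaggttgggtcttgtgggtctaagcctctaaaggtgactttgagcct
Sfmbt2 window 2: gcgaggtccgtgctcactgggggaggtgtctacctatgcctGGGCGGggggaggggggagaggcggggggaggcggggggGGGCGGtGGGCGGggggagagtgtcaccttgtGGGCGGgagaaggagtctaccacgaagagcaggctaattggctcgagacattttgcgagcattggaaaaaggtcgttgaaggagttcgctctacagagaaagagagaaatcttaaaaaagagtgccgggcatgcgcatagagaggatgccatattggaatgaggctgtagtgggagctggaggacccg
GGGCGG occurred 1 time in the first window and 4 times in the second, with no overlap with another match, and 35.7% of the 32851 windows in the table hold it. CANNTG occurred in neither window, and 72.3% of all windows hold it. These matches describe letters and are not evidence of a bound factor.

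The members split into assays that were read in nearly every row and assays that were hardly read at all. A Ct was present in 144 of the 216 member wells. It was present in all 24 rows for 5 members (miR-467a, miR-467b, miR-467c, miR-467d and miR-669a) and in 22 rows for miR-467e. The 2 rows of miR-467e without a Ct were row 1 of differentiation day 0 and row 4 of proliferation day 2, where rows are numbered by their position because the labels give them no number. By contrast, miR-297c and miR-466h had no Ct in any row, as had 67 of all 375 miRNA assays. miR-297b-5p had a Ct in 2 of its 24 wells, 38.87 in row 1 of differentiation day 2 and 38.22 in row 4 of differentiation day 5, close to the end of the 40-cycle run. The rat assays that carry a number of the cluster, rno-miR-466b and rno-miR-466c, are not members, and between them they gave a single Ct of 39.78. The 3 members with few or no wells read were too sparse to test, so every comparison concerns the other 6 members.

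Among the members read, the earliest was miR-467a and the latest were miR-669a and miR-467e. The Ct of miR-467a ran from 24.19 to 27.1, with a mean of 25.8. miR-467b (mean 27.6) and miR-467c (mean 27.9) followed, then miR-467d (mean 30.6), miR-669a (mean 31.8) and miR-467e (mean 31.9 over 22 rows). Of the 221 miRNA assays with a Ct in all rows, 58.4% had an earlier mean Ct than miR-467a and 98.2% had an earlier one than miR-669a. Both of these miRNAs have many gene copies, yet miR-467a was the earliest detected member and miR-669a was among the latest. It stood beside miR-467e, which has 1 gene. Amplification can differ between assays, so a difference in Ct between members is not a difference in copies of RNA.

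Each row had a Ct for 248 to 271 miRNA assays. The small nuclear RNA MammU6, the first reference used, had a mean Ct of 13.0 ± 0.49 on differentiation day 5, against 13.0 ± 0.62 on day 0 (SD, n = 4 rows), and 12.9 ± 0.53 on proliferation day 5, against 12.9 ± 0.52 on day 2. It came late in row 1 of the 4 differentiation days (13.25 to 13.85) and in row 2 of the proliferation days (13.64 on day 5, 13.61 on day 2). The cell type was checked with markers: all 6 muscle miRNAs were read in all rows, and their summed level against MammU6 was 1.39 to 2.08 on differentiation day 5, against -2.42 to -1.47 on day 0 (log2). Over the same days, the 3 neuronal markers summed to -8.20 to -7.04 on day 5, against -11.4 to -10.2 on day 0, and the 7 markers of pluripotent cells to -19.5 to -17.9 on day 5, against -27.2 to -26.7 in the 2 rows of day 0 that had any. The 5 markers of fibroblasts and smooth muscle summed to -5.51 to -4.33 on day 5, against -5.72 to -4.36 on day 0, the 2 endothelial ones at -9.77 to -8.88, against -10.9 to -9.58, the 6 blood cell ones at -8.08 to -7.44, against -7.32 to -6.33, and the 6 epithelial ones at -12.0 to -11.2, against -11.4 to -10.5. The pluripotent marker miR-302c had no Ct, and the part of these lists in the results on the cluster was not tested. In bulk RNA, fewer cells of a type and less RNA per cell cannot be told apart.

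Setting differentiation day 5 against day 0 asks whether the cluster moved over the whole course. Against MammU6, 5 of the 6 tested members rose, namely miR-467a, miR-467b, miR-467c, miR-467d and miR-669a, and 0 fell. The background is high: 42.3% of the 246 assays tested rose by the same rule (limma, p below 0.05 after Benjamini-Hochberg adjustment across every miRNA assay tested). The median change of the 6 members was 1.42 on the log2 scale, beside 0.89 over all tested assays. A level is the MammU6 Ct minus the assay's Ct in the same row, so that 1 unit more is about 2 times as much RNA.

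For miR-467a, the level against MammU6 was -11.71, -12.44, -12.79 and -13.03 in the rows of day 5, against -13.29, -14.37, -13.80 and -13.56 in those of day 0. All rows of day 5 thus lay above all rows of day 0, and the change was 1.26 ± 0.39 (SE of the limma fit), a fold of 2.40 (adjusted p = 0.0136). The lowest adjusted p of the 6 belonged to miR-467b, at -13.55, -13.77, -13.67 and -14.16 on day 5, against -14.87, -15.85, -14.85 and -15.08 on day 0. Its groups did not overlap, and it changed by 1.38 ± 0.34, a fold of 2.59 (limma adjusted p = 0.00393). miR-467c stood at -14.25, -14.62, -14.14 and -14.56 on day 5, against -15.48, -15.35, -15.76 and -15.98 on day 0. The day 5 rows again lay above the day 0 rows, with a change of 1.25 ± 0.34 and a fold of 2.38 (limma adjusted p = 0.00669).

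The later assays gave larger estimates with wider errors. miR-467d had levels of -16.16, -16.93, -17.21 and -17.90 on day 5, against -18.82, -18.06, -18.90 and -18.29 on day 0, without overlap, and changed by 1.47 ± 0.52 (limma adjusted p = 0.0267). The lowest day 0 level of any member was in miR-669a, whose rows read -17.23, -16.87, -18.59 and -18.19 on day 5, against -18.18, -20.40, -20.50 and -22.58 on day 0. Here row 1 of day 0 overlapped the day 5 rows, and the change of 2.70 ± 0.83, a fold of 6.48, had a 95% interval from 0.94 to 4.45 (limma adjusted p = 0.0135). miR-467e was at -17.12, -16.71, -18.68 and -19.30 on day 5, against -19.93, -19.48 and -19.59 in the 3 rows of day 0 that had a Ct. It did not pass: its estimate of 1.71 ± 0.87 had a limma adjusted p of 0.109, although its rows did not overlap. With the absent well of day 0 set to 40 cycles the estimate was 3.35 (limma adjusted p = 0.0413), and with a fit on these 2 days alone 1.71 passed as well (adjusted p = 0.0422).

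Counted by rows, 5 of the 6 members had every row of day 5 above every row of day 0, as had 32.1% of all tested assays. Leaving out row 1 of day 5, the row with the latest MammU6 on that day, left 3 members past the threshold. In that setting 79 of 247 tested assays rose, with a median change of 0.67 over all tested assays. By limma miR-467a was then at 1.00 (adjusted p = 0.0510) and miR-467d at 1.17 (adjusted p = 0.0916). The estimate for miR-467d also missed the threshold when day 0 lacked row 1 or 3 and when day 5 lacked row 2. There 127 of 246, 83 of 245 and 92 of 245 tested assays rose, in the same order.

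**Figure D2:**
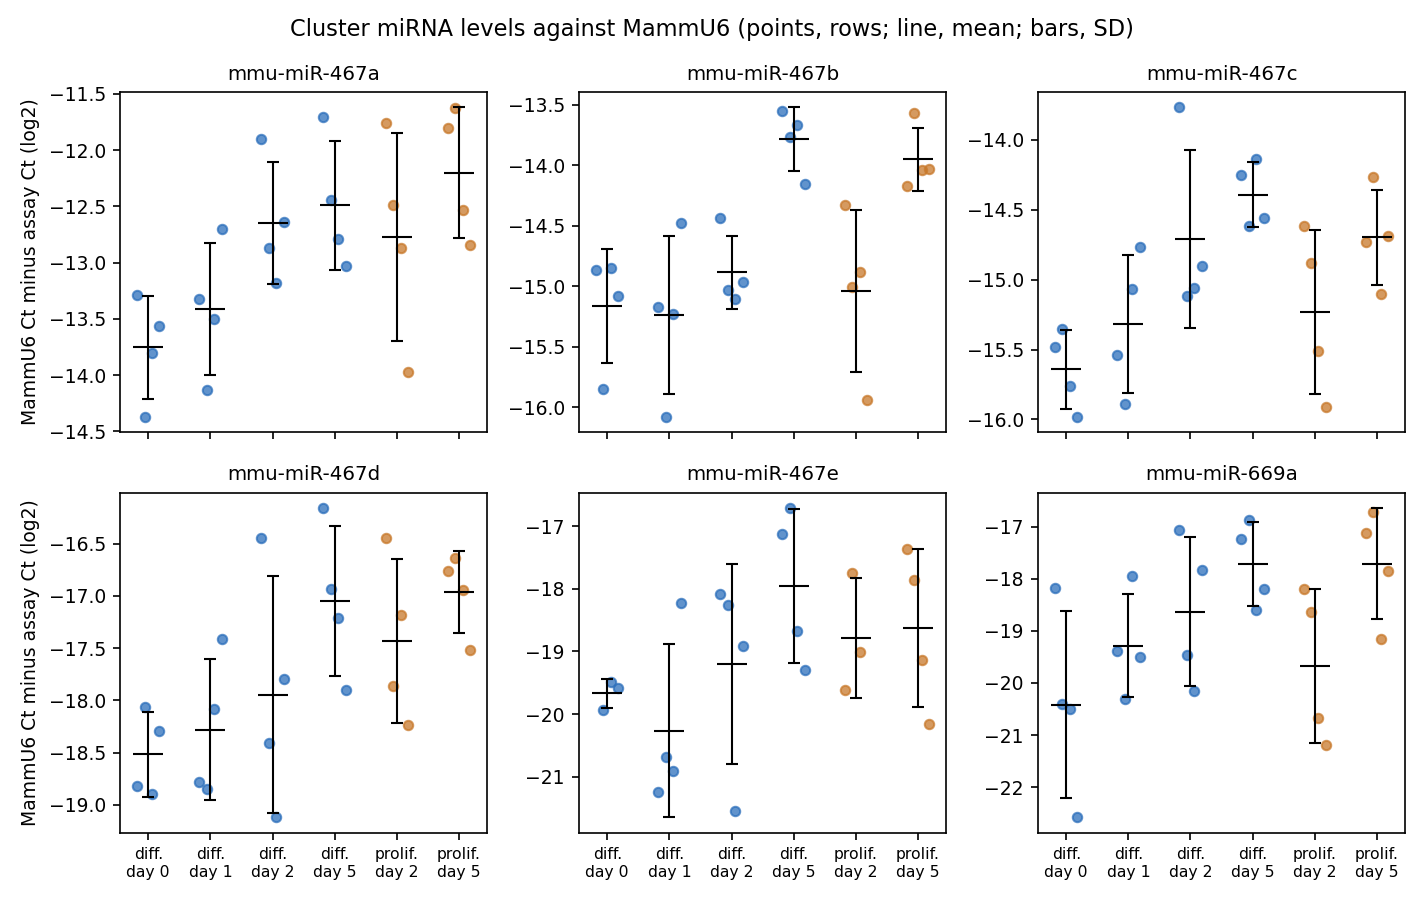
Levels of the 6 tested members against MammU6 (MammU6 Ct minus assay Ct, log2) on the 4 differentiation days (blue) and 2 proliferation days (orange); points are rows, the line is the mean and bars are the SD. In 5 of the 6 panels all rows of differentiation day 5 lie above all rows of day 0, and only miR-669a overlaps.

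On day 1 of differentiation no member passed the test, with intervals that for some members allow a change of several fold. Against day 0, 0 of 6 tested members passed in limma, as did 0 with an unadjusted p below 0.05, beside 2.1% of 238 tested assays called in either direction. The changes ran from -0.60 for miR-467e, again with 3 rows on day 0 (95% interval -2.45 to 1.26), to 1.13 for miR-669a (-0.63 to 2.89), with a median of 0.28 beside 0.07 over all tested assays. For miR-467b the level was -15.17, -16.08, -15.23 and -14.48 on day 1, which spans its day 0 rows, and the 95% interval of its change ran from -0.80 to 0.65. miR-467a stood at -13.32, -14.13, -13.50 and -12.70 on day 1, with an interval of the change from -0.49 to 1.17.

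On day 2, against day 0, miR-467a and miR-467c rose. These 2 of 6 tested members are a share near the background, since 28.4% of 243 tested assays rose, and against the row median 0 of 6 passed, with a median change of -0.20. Against MammU6, the median of the members was 0.75 beside 0.66 over all tested assays. The level of miR-467a was -11.90, -12.87, -13.18 and -12.64 on day 2, above all its day 0 rows, a change of 1.11 ± 0.39 (limma adjusted p = 0.0386). miR-467c read -13.77, -15.12, -15.06 and -14.90 on day 2, also above its day 0 rows, a change of 0.93 ± 0.34 (limma adjusted p = 0.0442). Row 1 of day 2 was by far its highest row, and the change of miR-467c without that row was 0.62. miR-467b had a change of 0.28 ± 0.34 and miR-669a one of 1.79 ± 0.83 (limma adjusted p = 0.561 and 0.108). Both calls of day 2 were near the threshold: the count fell to 0 when day 0 lacked row 2, 3 or 4 and when day 2 lacked row 1 or 4. It was 1 when day 2 lacked row 2, and 3 when day 0 lacked row 1 or day 2 lacked row 3. With a count of 0, 51 of 244, 44 of 243, 64 of 245, 52 of 244 and 57 of 242 tested assays rose. With a count of 1, 64 of 242 rose, and with a count of 3, 105 of 245 and 71 of 243. These follow the order in which the rows are named.

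Between day 5 and day 2, miR-467b was the 1 of 6 members that passed, beside 9.31% of 247 tested assays that rose. Its levels on day 2 were -14.44, -15.03, -15.11 and -14.97, all below its day 5 rows, and its change was 1.10 ± 0.34, a fold of 2.14 (limma adjusted p = 0.0409). The call was lost on leaving out row 2, 3 or 4 on day 2, or row 1, 2 or 3 on day 5, where the change was 1.02 to 1.09, whereas miR-467d joined it, at 1.39, without row 1 of day 2. In that last setting 43 of 247 tested assays rose, and in the settings that lost the call 16 of 247 to 20 of 248 did. For miR-467a the same comparison gave 0.16 ± 0.39, with an interval from -0.67 to 0.98. miR-467e had an estimate of 1.25 (-0.47 to 2.96), larger than that of miR-467b, and miR-669a one of 0.91 (-0.85 to 2.66), and neither passed. The median of the 6 members was 0.90, beside 0.16 over all tested assays.

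Set against day 1, day 5 was higher for miR-467b (1.45 ± 0.34, limma adjusted p = 0.00380), miR-467c (0.93 ± 0.34, adjusted p = 0.0389) and miR-467e (2.31 ± 0.81, adjusted p = 0.0329). These were 3 of 6 members, beside 32.9% of 243 tested assays that rose. The rows of miR-467e overlapped, with -21.25, -20.68, -20.91 and -18.22 on day 1, of which row 4 lay inside the day 5 range. Omitting row 1, 2 or 3 on day 1, or row 1 or 2 on day 5, gave a count of 1. In that order, 87 of 245, 51 of 247, 58 of 246, 50 of 243 and 64 of 244 tested assays rose. Omitting row 3 on day 5 gave 2, and omitting row 4 on day 1 gave 5. There 84 of 246 and 84 of 245 tested assays rose, in the same order. For day 2 against day 1, 0 of 6 members passed in limma, adjusted or at an unadjusted p under 0.05, beside 13.3% of 241 tested assays called in either direction. With the row position as a block, miR-467a passed there at 0.77 (limma adjusted p = 0.0427), where 116 of 241 tested assays rose.

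The picture differed when each row was set against its own median miRNA assay. This second reference is the median Ct of the 221 assays read in all rows, and the rise against MammU6 over the course was shared by it: the row median Ct averaged 24.0 ± 0.31 on differentiation day 5, against 25.3 ± 0.49 on day 0 (SD, n = 4 rows). On this scale 0 of 6 members passed in limma between day 5 and day 0, with or without adjustment of p, beside 52.8% of 246 tested assays called in either direction. The members' median change was 0.15, beside -0.35 over all tested assays, and their 6 changes ran from 0.01 for miR-467c to 1.46 ± 0.71 for miR-669a (adjusted p = 0.0987). Among the assays that did pass, 42 were higher and 88 lower, whereas against MammU6 the split was 104 higher and 24 lower.

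miR-467c kept closest to the median miRNA. Its day means against the row median lay between -3.43 and -3.21 over all 6 days, a range of 0.22, and none of the 221 assays read in all rows had a smaller range of day means. Within a day its rows spread more than that, from -4.11 to -2.65 on differentiation day 0 and from -3.79 to -2.64 on day 5. The range of day means was 0.71 for miR-467a, smaller than that of all but 8.60% of the assays, 0.86 for miR-467b and 1.19 for miR-467d. It was 1.68 for miR-669a, above the median range of 1.48 over the 221 assays. These ranges are a description over 6 day means, with no test.

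On the same scale miR-467a stayed between -1.75 and -1.25 in all rows of day 5, against -1.92 to -0.99 on day 0, and its change of 0.02 had a 95% interval from -0.45 to 0.50. For miR-467b the interval ran from -0.54 to 0.81, and for miR-467d from -0.73 to 1.19, so that a change of the size seen against MammU6 (1.38 and 1.47) lay outside both. For miR-669a (-0.07 to 2.98) and miR-467e (-1.48 to 1.81) it lay inside, at 2.70 and 1.71. For members read in all rows, the changes on the 2 scales differ only by the shift of the row median against MammU6. Lying inside or outside therefore describes that shift and the width of the interval. The other days gave the same count: 0 of 6 members passed for day 1 against day 0 (background 17.6%), day 2 against day 0 (44.9%), day 2 against day 1 (17.4%), day 5 against day 1 (48.6%) and day 5 against day 2 (35.2%). At an unadjusted p under 0.05 limma gave 1 member in day 2 against day 0, miR-467b at -0.68, and 1 in day 5 against day 2, again miR-467b, at 0.81 (adjusted p = 0.0902 and 0.0566). Against the row median, the estimate for miR-467c between day 2 and day 0 was -0.02.

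**Figure D3:**
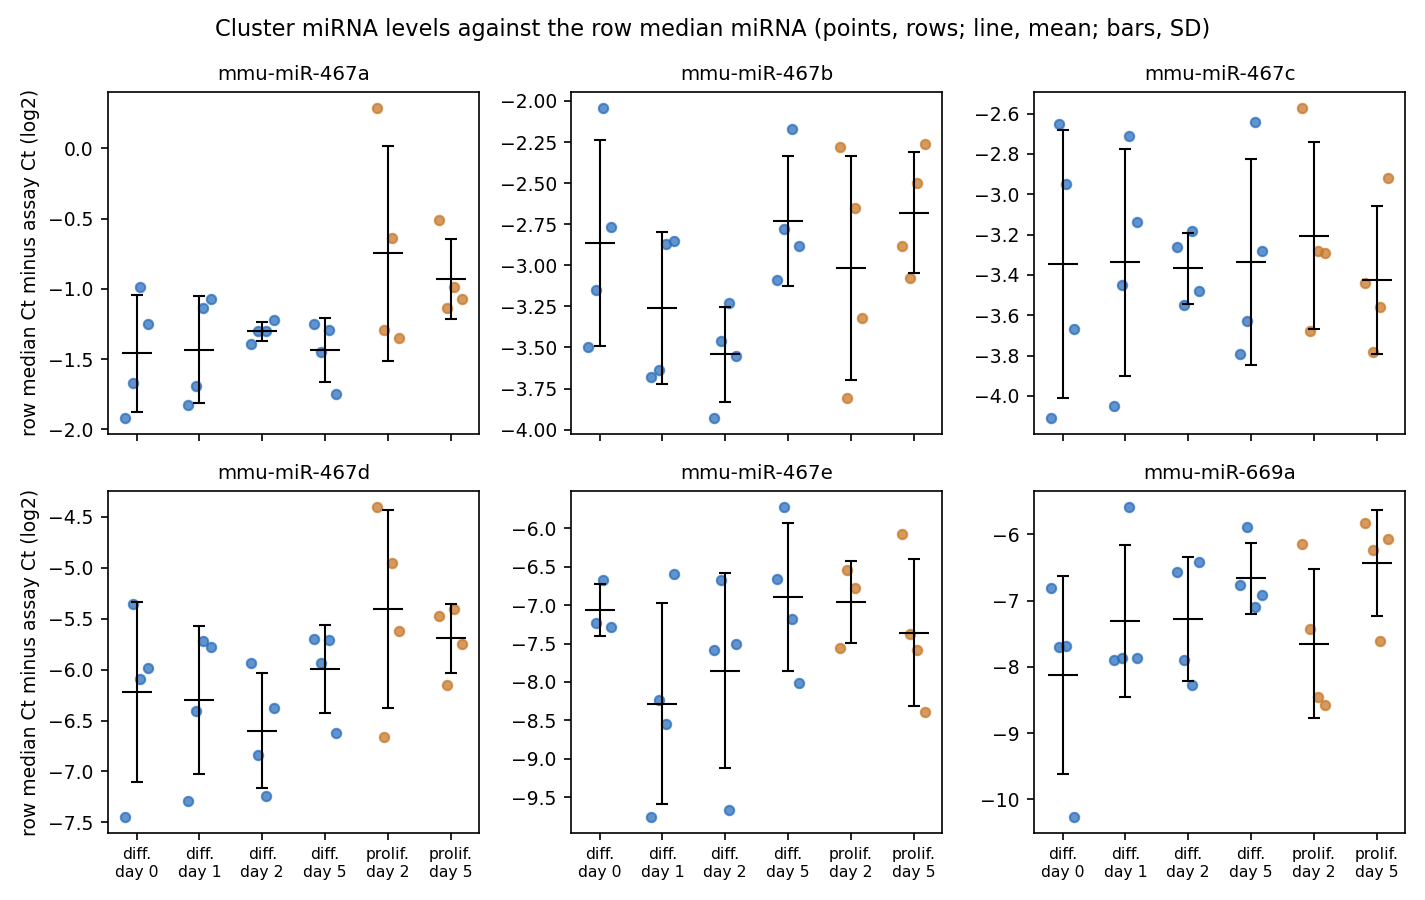
Levels of the 6 tested members against the median miRNA assay of the same row (log2), on the 4 differentiation days (blue) and 2 proliferation days (orange); points are rows, the line is the mean and bars are the SD. The day means of miR-467c stay between -3.43 and -3.21, and those of miR-669a span 1.68.

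The 4 other small RNA controls gave counts of their own. For day 5 against day 0, 5 members rose against snoRNA135, 2 against U87, 1 against snoRNA202 and 1 against Y1, and 0 fell. Of all 246 tested assays, 120, 85, 71 and 66 rose in the same order. The 1 member in common to the 4 counts was miR-669a, which passed the limma threshold with each of the 4 controls. The median change over all tested assays was 0.79 with snoRNA135, 0.43 with U87, 0.39 with Y1 and 0.22 with snoRNA202. For day 2 against day 0, 1 member rose with snoRNA135 and with snoRNA202, and 0 with U87 and Y1. Of 243 tested assays, 100, 77, 45 and 21 rose in the same order. For day 5 against day 1, snoRNA135 lost miR-467c (0.76, limma adjusted p = 0.0805) and added miR-467a (0.76, adjusted p = 0.0284) and miR-467d (1.07, adjusted p = 0.0497). There 99 of 243 tested assays rose with snoRNA135.

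In growth medium, proliferation day 5 was set against day 2. No member passed, 0 of 6 against MammU6, beside 7.44% of 242 tested assays called in either direction, and all 6 changes were above 0, with a median of 0.55 beside 0.75 over all tested assays. For miR-669a the levels were -17.12, -16.72, -19.15 and -17.84 on day 5, against -18.20, -18.63, -20.68 and -21.20 on day 2, a difference of 1.97 ± 0.73 (limma unadjusted p = 0.0196, adjusted p = 0.119). miR-467b read -14.17, -13.57, -14.04 and -14.03 on day 5, all above its day 2 rows of -14.33, -15.01, -14.88 and -15.94. Its difference was 1.09 ± 0.43, with limma p values of 0.0255 unadjusted and 0.121 adjusted. Both passed with the row position as a block (limma adjusted p = 0.0169 for miR-669a and 0.0430 for miR-467b), and miR-669a also passed with U87 as reference, at 1.92, and without row 2 of day 2, at 2.32. The background moved too: 119 of 242 tested assays were higher with the block and 92 of 244 without row 2 of day 2. With U87, 19 of 242 were higher. Against the row median 0 of 6 passed, with a background of 5.79%.

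**Figure D4:**
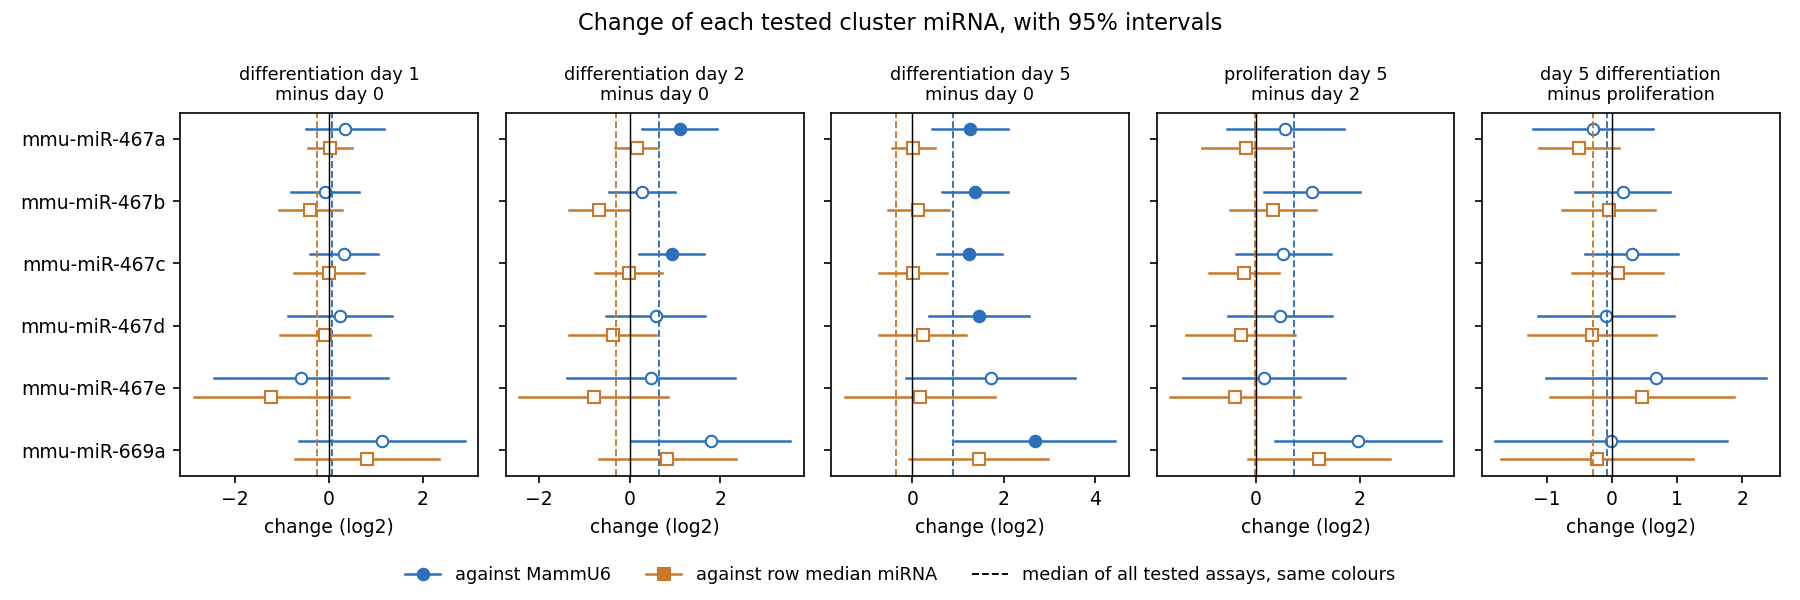
Change of each tested member in 5 comparisons, on the log2 scale, with 95% intervals from the limma fit; blue is against MammU6, orange against the row median miRNA, filled symbols passed (adjusted p under 0.05) and dashed lines are the median of all tested assays. The only filled symbols are blue, 2 for day 2 and 5 for day 5 against day 0.

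The media were also set side by side on the same day, which is none of the deposited pairs. Per the labels they differed in plate coating and plating density too, so these cannot be told apart from the medium. On day 5 no difference was detectable against MammU6: 0 of 6 members passed, with 0 at an unadjusted p under 0.05 in limma, beside 28.9% of 246 tested assays called in either direction. The mean level of miR-669a was -17.7 ± 0.80 in differentiation and -17.7 ± 1.07 in proliferation (SD, n = 4 rows), with a 95% interval of the difference from -1.79 to 1.76. For miR-467c the difference was 0.31, with the narrowest interval of the 6, from -0.41 to 1.02, and for miR-467b it was 0.17, from -0.57 to 0.90. With snoRNA135 as the reference, miR-467b (1.00) and miR-467c (1.14) were higher in differentiation, as were 120 of the 246 tested assays. The median difference over all tested assays was then 0.77. Against the row median 0 of 6 passed (background 49.6%). The rows of miR-467a in differentiation (-1.75 to -1.25) all lay below those in proliferation (-1.14 to -0.51), but miR-467a did not pass. By limma 85 of the 246 tested assays were lower there, and the share of assays without overlap was not counted.

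On day 2, 0 of 6 members differed between the media against MammU6, adjusted or at an unadjusted p under 0.05, beside 29% of 241 tested assays. Against the row median, miR-467d was lower in differentiation, the 1 member of 6 that passed, where 33.6% of 241 tested assays were lower. Its rows were -5.94, -6.84, -7.24 and -6.38 in differentiation, against -4.40, -6.66, -4.95 and -5.62 in proliferation. They overlapped, and the difference was -1.19 ± 0.47 (limma adjusted p = 0.0397), beside -0.51 ± 0.50 against MammU6. With U87 as the reference, miR-467c was higher in differentiation, at 0.98 (limma adjusted p = 0.0332), as were 114 of the 241 tested assays. The median difference over all tested assays was then 0.825. The test of whether the change between days 2 and 5 differed between the media gave 0 of 6 members against MammU6 (background 7%) and 0 of 6 against the row median (background 18.5%), with 0 at an unadjusted p under 0.05 in either.

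By mean level against MammU6, differentiation day 5 and proliferation day 5 took the top 2 places in all 6 tested members. The row median Ct was also earliest on these 2 days, at 24.03 in differentiation and 24.15 in proliferation. Against the row median, only miR-467b and miR-669a kept these days in the top 2 places. There miR-467a was highest on proliferation day 2, and miR-467c was lowest on proliferation day 5. Against MammU6, the media differed on day 5 by -0.01 for miR-669a and by -0.09 for miR-467d, inside the spread of their rows. Differentiation day 0 was lowest for all but miR-467b and miR-467e, where day 1 was lower still. The mean of the 5 members per row was -14.58, -14.93, -15.28 and -15.57 on differentiation day 5, against -16.13, -16.81, -16.76 and -17.10 on day 0. In proliferation it was -14.92, -14.57, -15.55 and -15.38 on day 5, against -15.07, -15.77, -16.22 and -17.05 on day 2, where row 1 of day 2 overlapped the later day.

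Differences between members within a row need no reference. The Ct of miR-467b minus that of miR-467a was 1.58, 1.48, 1.05 and 1.52 cycles on differentiation day 0, 1.85, 1.95, 1.73 and 1.78 on day 1, 2.54, 2.16, 1.93 and 2.33 on day 2, and 1.84, 1.33, 0.88 and 1.13 on day 5. The gap was thus wider on days 1 and 2 than on day 0 in all rows, and narrower on day 5 than on day 2. In proliferation the same gap was 2.37, 1.94, 1.51 and 1.19 on day 5, against 2.57, 2.52, 2.01 and 1.97 on day 2, with overlap. Of the 70 tests, over 10 pairs of the 5 members and 7 deposited pairs of days, 5 had rows that did not overlap, 3 between miR-467a and miR-467b and 2 between miR-467b and miR-467c. Each of these had the smallest p that an exact two-sided permutation test of 4 rows against 4 can give, 0.0286, and after Benjamini-Hochberg adjustment over the 70 tests the exact p was 0.400. With only 5 tests at that floor, none could pass after adjustment, so the test does not decide whether these gaps changed.

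**Figure D5:**
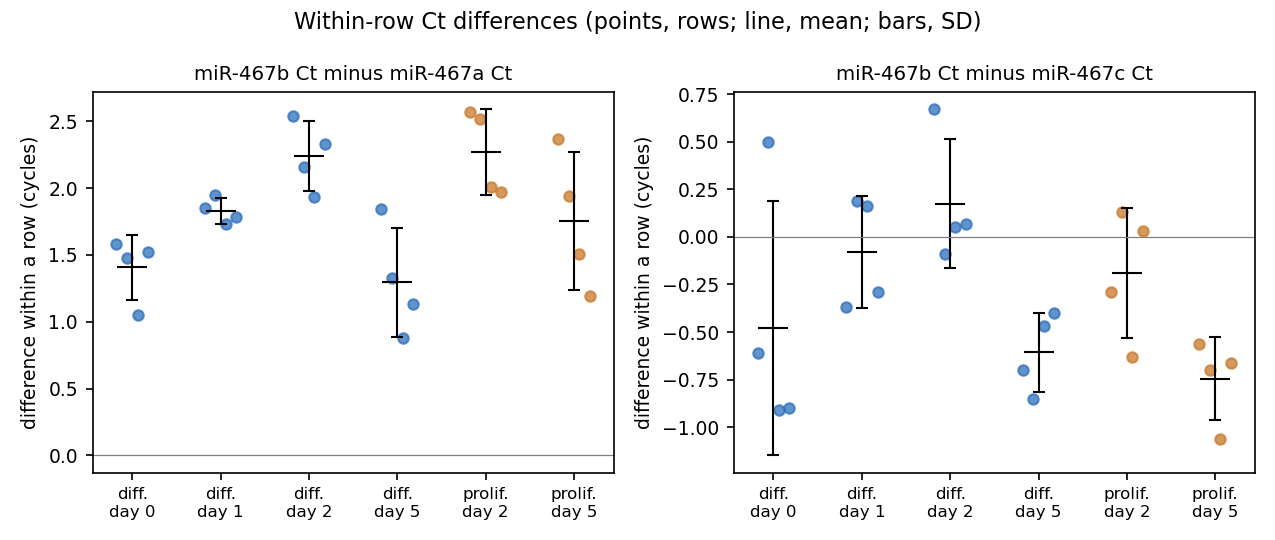
Ct of miR-467b minus the Ct of miR-467a (left) and of miR-467c (right) in the same row, in cycles, on the 6 days; points are rows, the line is the mean and bars are the SD. The gap to miR-467a averages 1.29 on differentiation day 5 and 2.24 on day 2, without overlap.

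Day profiles of the members against the row median were not alike. Over the 6 day means, Pearson's r with the mean of the other 4 members was 0.68 for miR-467d, 0.52 for miR-467b, 0.51 for miR-467a, 0.21 for miR-669a and -0.04 for miR-467c. The mean profile of the 5 members spanned 0.59, between -4.42 on differentiation day 2 and -3.83 on proliferation day 5. Of 216 other assays read in all rows, those most like this profile were miR-215 (r = 0.99), miR-148a (0.92), miR-152 (0.91), let-7g (0.89) and miR-224 (0.89). The 6 points share their rows and reference, and these values are descriptions without a test.

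miRNAs of other imprinted genes were set beside the cluster as a comparison list. Between day 5 and day 0 the median change against MammU6 was 1.42 for the 6 Sfmbt2 members and 1.22 for the 33 tested of 46 assays from the Dlk1-Dio3 region, of which 21 rose and 0 fell, where 42.3% of all 246 tested assays rose. Between the media on day 5, the median was 0.08 for the Sfmbt2 members, 0.69 for 34 tested Dlk1-Dio3 assays, of which 4 were higher in differentiation, and -0.07 over all 246 tested assays, of which 11.8% were higher. The difference between the lists was not tested. Of the assays from Mest, Gnas and H19, miR-296-3p (3.14), miR-675-3p (2.26) and miR-298 (1.29) rose on day 5 against day 0, and miR-335-3p fell by 7.19. The other arm, miR-296-5p, did not pass against MammU6 (0.87, limma adjusted p = 0.0983) or the row median (-0.37, adjusted p = 0.0834). Against the row median the change was 1.59 for miR-296-3p, 1.02 for miR-675-3p and -8.43 for miR-335-3p, which all passed. That of miR-298 was 0.05 (limma adjusted p = 0.817), and miR-335-5p was lower there, at -0.95 (adjusted p = 0.0330), but not against MammU6 (0.29, adjusted p = 0.652). On the row median scale, 0 of the 6 Sfmbt2 members passed between day 5 and day 0, and of the 33 Dlk1-Dio3 assays 4 were higher and 3 lower, where 17.1% of all tested assays were higher and 35.8% lower.

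In the authors' deposited table, the 6 members read in most rows carry a signed fold against MammU6 for each of the 7 pairs. All 42 of these values lay within 0.01 log2 of the changes computed from the Ct values. For miR-669a the authors' deposited table has 6.48 for differentiation day 5 over day 0 and -3.92 for proliferation day 2 over day 5, where the minus sign marks a lower value on day 2.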

How the data were processed

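The authors deposited raw threshold cycles (Ct) of 381 TaqMan assays, neither normalized nor averaged, per the file headers and the values, and a table of signed folds (ratio values) against MammU6. Per the labels, RNA was extracted with TRIzol, had an integrity number above 9 and was run for 40 cycles on an Applied Biosystems 7900HT. Software and threshold settings are not given in the sources used here. The 8 repeat day columns were identical to those they repeat. Nothing in the labels tells if the 4 rows of a day were separate cultures or repeat wells, and p-values therefore reflect row-to-row spread that may be technical.

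Each Ct was subtracted from MammU6 of the same row, and wells without a Ct were left out. An assay was tested with at least 3 of 4 wells on both days and a mean Ct under 35 on at least 1. limma 3.58.1 (R 4.3.3; lmFit, eBayes) was fitted across all miRNA assays, with one fit for differentiation, one for proliferation and one over all days for the media. Alternatives were the row median miRNA or another control as reference, other Ct and well limits, absent wells at 40, rows left out, row position as a block, the compared days alone and Welch's test across all assays. The fit was also run on simulated data, where MammU6 varied less than in the real rows (SD 0.40 to 0.63 within a day). Assays varied independently there, so that run does not cover deviations shared within or between rows. Exact tests used scipy 1.17.1, and figures matplotlib 3.10.9. All 9 members are named, with the 5 assays most like their mean profile, the lists of imprinted and marker miRNAs, and the controls. Members and lists were chosen with earlier results of these data known. The 4 rows a day limit the precision.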

Additional observations from a re-analysis of the deposited data

Results flagged for a closer look

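The level of miR-467c against MammU6 on differentiation day 2 stood apart in 1 row. Row 1 was at -13.77 (log2), and the other 3 rows lay between -15.12 and -14.90. The gap to the nearest row was 0.837 of the range of the 4 rows, above the 95% critical value of Dixon's test for 4 values. This row also had the latest MammU6 of that day, 13.85 cycles, and against the row median miRNA it was at -3.26, inside the range of the other rows. Of 34 groups of 4 rows examined this was the only one, and chance flags about 1 in 20 such groups.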

How the results depend on the processing

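The number of members called changed with the reference, the fit and the rows used. Against the row median miRNA it was 0 of 6 for differentiation days 2 and 5 against day 0, day 5 against day 1 and day 5 against day 2, and 1 (miR-467d, lower) for day 2 between the media. For day 5 against day 0 it was 1 with snoRNA202, 2 with U87, 1 with Y1 and 3 with Welch's test across all assays. Of the 246 assays tested there, 71, 85, 66 and 65 were higher in the same order. For day 2 against day 0 it was 1 with snoRNA135, 1 with snoRNA202, 0 with U87, 0 with Y1, 0 with a fit on these days alone, 0 with Welch's test and 1 without the row of latest MammU6 on each day, a setting chosen after the data were seen. Of the 243 assays tested there, 100 were higher with snoRNA135, 77 with snoRNA202, 45 with U87 and 21 with Y1. The fit on these days alone had 60 of 243, Welch's test 36 of 243, and the setting without those rows 91 of 246. For day 5 against day 1 it was 0 with snoRNA202, 0 with U87, 1 with Y1 and 0 with Welch's test, and for day 5 against day 2 it was 0 with snoRNA202, 0 with U87, 0 with Y1 and 0 without the row of latest MammU6. For day 5 against day 1, 52, 61, 78 and 51 of 243 tested assays were higher in the same order. For day 5 against day 2, 30, 41 and 55 of 247 were higher, and 40 of 248 without the row of latest MammU6. U87 gave 1 for proliferation and 1 for day 2 between the media, and snoRNA135 gave 2 for day 5 between the media. In the same order, 19 of 242, 114 of 241 and 120 of 246 tested assays were higher. The only change of direction past the threshold on either side was miR-467c for day 2 against day 0, at -0.0225 against the row median. The cause of these shifts was not tested. With 1 row left out, the count for day 2 against day 0 ranged over 0 to 3. For day 5 it ranged over 3 to 5 against day 0, 1 to 5 against day 1 and 0 to 2 against day 2. For proliferation it was 0 to 1, and in the other 5 comparisons it stayed at 0. The number of all tested assays that were higher moved too, from 44 of 243 to 105 of 245 for day 2 against day 0. For day 5 it was 79 of 247 to 127 of 246 against day 0. Against day 1 it was 50 of 243 to 87 of 245, and it was 16 of 247 to 43 of 247 against day 2. In proliferation it was 9 of 242 to 92 of 244. The labels give the rows no number, and rows of the same position on different days of a medium had deviations that correlated at 0.03 to 0.65, with 24 of 28 rows closest to their own position. With the row position as a replicate block the count was 1 for day 2 against day 1 and 2 for proliferation, and within 1.5 times the reported count elsewhere. In those 2 comparisons 116 of 241 and 119 of 242 tested assays were higher with the block. Of the changes of single members, 615 of 766 kept their direction and side of the threshold when all rows were kept or the row of latest MammU6 dropped. With 1 row left out, 454 of 528 did. Most of these changes had not passed at first, so both shares mostly count changes that stayed short of the threshold. A call was lost, with its direction kept, in 54 of the 766 and 34 of the 528. One was gained in 15 and 7. The late Ct of miR-467e, miR-669a and the miR-297 and miR-466 assays limits what could be seen for them.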
